A study of Mus musculus with 8 samples.

Results

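Wnt proteins are secreted lipid-modified ligands that bind frizzled receptors together with the co-receptors LRP5 and LRP6. Binding inactivates a cytoplasmic complex of AXIN, APC and kinases that otherwise marks β-catenin for degradation, and stabilised β-catenin then acts in the nucleus with TCF/LEF factors. Secreted proteins grouped here by symbol as antagonists (SFRP, DKK and WIF1) mostly limit the ligands or receptors, though not every member need do so. R-spondins and their LGR receptors remove the ubiquitin ligases ZNRF3 and RNF43 that clear frizzled receptors from the surface. In adipose tissue the β-catenin branch is known as a brake on adipocyte differentiation.

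The genes described here are the Wnt ligands, their receptors and co-receptors, their antagonists, the R-spondin axis and the core transducers in mouse brown adipose tissue. They were chosen by gene symbol among protein-coding genes, with the further condition of a value above 0 in any library. The rule matched 60 symbols, of which 54 were above 0, out of 16888 protein-coding genes above 0 and 54532 genes in the table. Dkk1, Wnt3, Wnt3a, Wnt7a, Wnt7b and Wnt8a were listed at 0 in all 8 libraries. Just inside the rule were Rspo2 (mean 0.00304 FPKM, 2 reads in all), Lgr5 (0.00622 FPKM, 8 reads) and Dkk4 (0.0116 FPKM, 2 reads). FPKM stands for fragments per kilobase of gene, scaled for library depth, a scale per length on which genes can be set side by side.

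The study compared brown fat of WT mice (4 libraries) with that of mice labelled OGTBKO (4 libraries), whose genotype concerns Ogt, the enzyme that attaches O-GlcNAc to nuclear and cytoplasmic proteins. All mice, WT included, lived at 23 °C on standard chow, were given an inducing agent (spelled "gomaxifen" in the labels) after 8 weeks and were sampled 2 months later. White fat around the tissue was trimmed away, and RNA was taken from the whole depot, although the cell type label reads adipocytes. The labels name no strain, sex, promoter or driver of the deletion, and do not say whether each library is a separate animal, so p-values measure the spread between these libraries.

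Ogt was 33.1, 24.7, 23.9 and 22.5 FPKM in WT 1 to 4 and 10.7, 14.5, 12.8 and 11.8 FPKM in OGTBKO 1 to 4. The groups did not overlap (log2 change -1.03 ± 0.14 SE, limma adjusted p = 0.00511; exact two-sided permutation p = 0.0286, the smallest that 4 against 4 allows). Back-calculated reads in genes ranged from 13393962 to 15897920 per library, and 1 kb of gene with 1 read had an FPKM of 0.0556 to 0.0945. Skeletal muscle markers (Acta1, Myh1, Myh4, Ckm, Tnnt3) summed to 375 FPKM in WT 1 and 1099 FPKM in OGTBKO 1, against 0.383 to 29.1 FPKM in the other libraries. Adipocyte markers were high in every library (3078 to 5019 FPKM summed over 7 genes). Of the 7, 1 was lower and 1 was higher in OGTBKO, with a median log2 change of 0.03. The lower one was the thermogenic protein Ucp1, at 2051 ± 485 FPKM in WT and 1006 ± 79.3 FPKM in OGTBKO (SD, n = 4 each, limma adjusted p = 0.0113). The higher one was Lipe, at 103 ± 8.54 and 157 ± 20.8 FPKM (limma adjusted p = 0.0165). White adipocyte markers summed to 51.4 to 123 FPKM in WT and 155 to 202 FPKM in OGTBKO (2 of 4 passed the test, both higher). Mesothelial markers stayed at or under 0.686 FPKM and lymphocyte markers at or under 1.51 FPKM in every library.

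Of the 54 genes, 28 reached the mean of 0.5 FPKM needed for testing and 26 did not. Of the 28 tested, 5 passed at an adjusted p under 0.05 (17.9%), against 15.6% of all 13171 genes tested, so the number was near the background. The Wnt antagonist Sfrp1 was the member that rose (1 of 28, where 8.11% of all genes rose). The members that fell were the receptor Fzd1, the co-receptor Lrp6, the R-spondin receptor Lgr4 and the ubiquitin ligase Znrf3 (4 of 28, where 7.46% of all genes fell). The libraries of both groups did not overlap for 8 of the 28 (28.6%), 1 higher and 7 lower, against 22.5% of all genes (11.1% higher and 11.4% lower). The median log2 change was -0.05 over the tested members and -0.002 over all genes tested, with 13 members above 0 and 15 below. Without both libraries numbered 1, whose muscle marker sums stood apart, 6 members passed (Sfrp1 higher, Axin2 higher, and Lrp6, Lgr4, Znrf3 and Lgr6 lower), where 14.6% of all genes passed, and Fzd1 did not (limma adjusted p = 0.0703). All 4 members that fell were highest in WT 3, a library with 39.4% mitochondrial reads (25.2% to 32.2% elsewhere) and a denominator 0.790 times its total (0.966 to 1.13 elsewhere). Without WT 3 the log2 change was -0.34 for Fzd1 (limma adjusted p = 0.0398), -0.42 for Lrp6 (0.0470), -0.45 for Znrf3 (0.0457) and -0.55 for Lgr4 (0.0503, not passed). These levels were measured in whole tissue, where fewer cells of a type and less RNA per cell cannot be told apart.

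**Figure D1:**
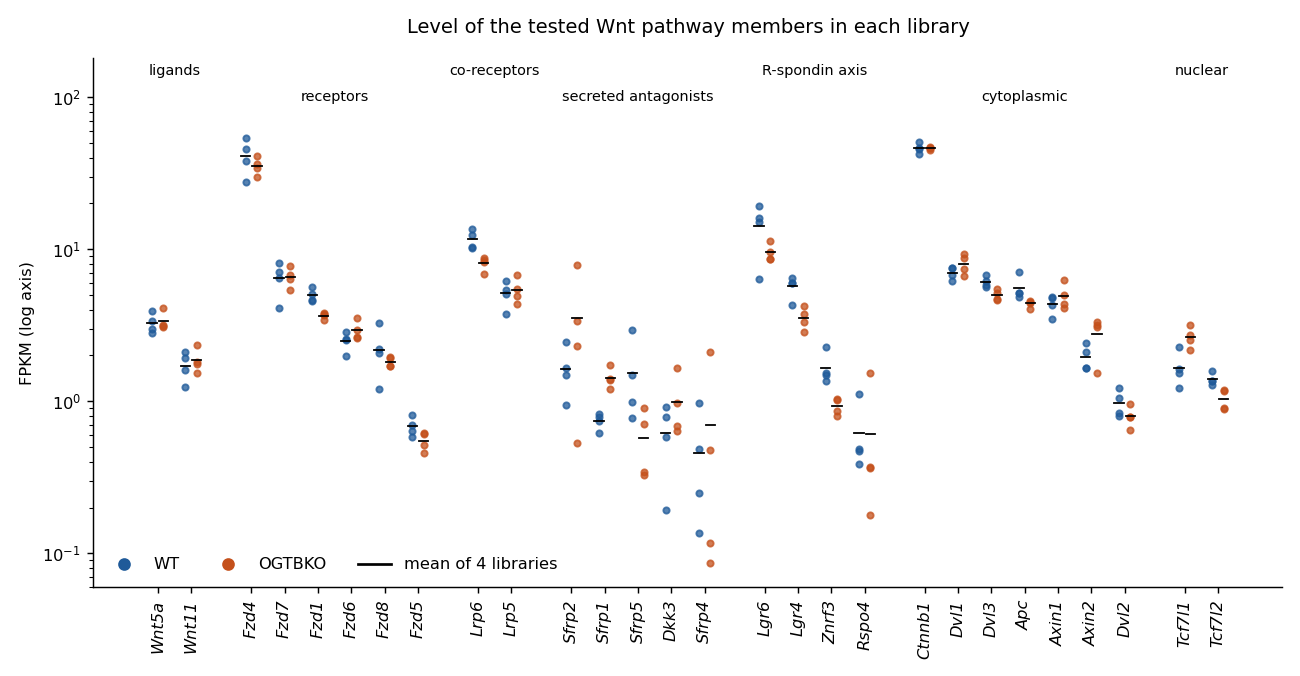
FPKM (log axis) of the 28 tested members in each WT (blue) and OGTBKO (orange) library, grouped by role, with a bar at the mean of 4 libraries. Ctnnb1 and Fzd4 lie highest, at 46.3 and 41.2 FPKM in WT, and Sfrp4 spans 0.0859 to 2.10 FPKM over the OGTBKO libraries.

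**Figure D2:**
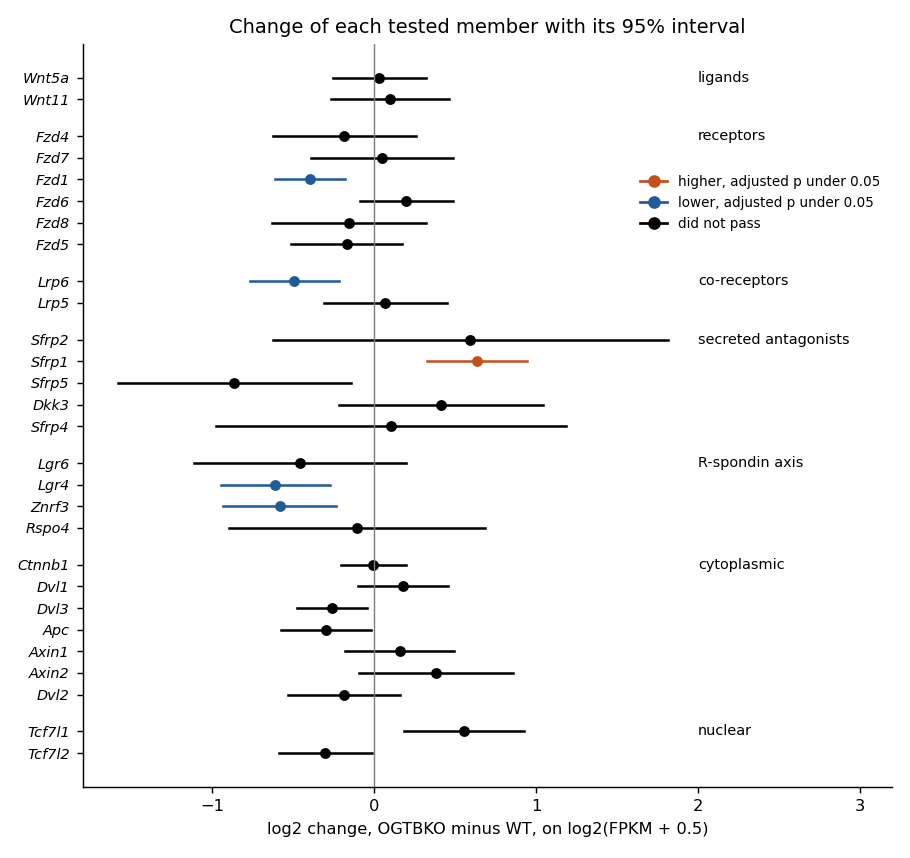
Log2 change of OGTBKO minus WT on log2(FPKM + 0.5) for the 28 tested members, with 95% intervals from limma (n = 4 libraries per group). Sfrp1 is the member drawn as higher, and Fzd1, Lrp6, Lgr4 and Znrf3 are drawn as lower.

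The base composition of genes moved with the comparison across the whole table. Among the 3291 tested genes with the lowest GC content (18.1% to 44.7%), 84 were higher and 581 lower in OGTBKO, whereas among the 3290 with the highest (54.2% to 75.5%) 456 were higher and 65 lower. The members had a median GC content of 52.6%, against 49.4% for all genes tested. Among those that passed, GC content was 46.0% for Lrp6, 46.3% for Lgr4, 50.7% for Znrf3, 50.8% for Sfrp1 and 55.7% for Fzd1. A trend on GC content and gene length was then taken out of each library, hereafter trend removal. After it, 10.6% of all genes and again 5 members passed, namely Fzd1, Lgr4, Znrf3, Sfrp1 and, in place of Lrp6, Sfrp5. Ogt had a GC content of 42.9% and passed under 19 of the 20 alternatives tried. The exception was trend removal with the replicate number as a block (log2 change -0.81, limma adjusted p = 0.0515).

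Ligands were few and low in this tissue. Of the 19 ligand symbols, 14 were above 0, and Wnt5a and Wnt11 reached the level for testing. Wnt5a, which mainly acts through β-catenin-independent routes, was 2.99, 3.37, 3.95 and 2.83 FPKM in WT and 3.15, 3.06, 3.17 and 4.09 FPKM in OGTBKO. It made up 43.4% to 60.3% of the summed ligand FPKM in WT and 41.3% to 52.4% in OGTBKO, so it was the most abundant ligand transcript in every library. Its log2 change was 0.03 (95% interval -0.26 to 0.32, adjusted p = 0.888). Wnt11, another ligand of the non-canonical kind, was 2.11, 1.23, 1.92 and 1.60 FPKM in WT and 1.53, 1.82, 1.75 and 2.36 FPKM in OGTBKO. The groups overlapped, with a log2 change of 0.10 (-0.26 to 0.46, adjusted p = 0.712).

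Below the level for testing, Wnt9a averaged 0.345 ± 0.0773 FPKM in WT and 0.387 ± 0.198 FPKM in OGTBKO, and Wnt2 averaged 0.275 ± 0.210 and 0.375 ± 0.368 FPKM. Among all 26 members under that level, the groups did not overlap for 4 (Wnt2b, Wnt5b, Wnt8b and Tcf7, named after their values were seen), where 4.67% of all genes under the level and above 0 showed this. That share is over 13654 genes of every biotype and was not matched for level. The members are protein-coding, and 13 of the 26 had a mean of at least 0.1 FPKM, so the sets are not alike. Wnt2b was lower in OGTBKO, with 0.395, 0.216, 0.382 and 0.306 FPKM in WT and 0.101, 0.0591, 0.0530 and 0.154 FPKM in OGTBKO. These values stood for 13 to 23 reads in the WT libraries and 4 to 9 reads in the OGTBKO libraries. With no filter on low values Wnt2b passed the test (log2 change -0.48 on the log2(FPKM + 0.5) scale, limma adjusted p = 0.0425, where 4.58% of genes passed). With a filter at 0.1 FPKM it did not (limma adjusted p = 0.0557). Wnt8b had 1 read over the 4 WT libraries and 3, 4, 8 and 16 reads in OGTBKO 1 to 4, and Wnt5b had 2 to 9 reads per WT library and 8 to 13 per OGTBKO library. Wnt5b shares part of its span with Fbxl14 on the opposite strand, and whether the counting used strand is not given in the sources used here, so its few reads cannot be assigned with certainty. Wnt10b, a ligand known to restrain adipogenesis, had 0 to 10 reads in WT libraries and 1 to 38 in OGTBKO libraries, with the 38 in OGTBKO 2.

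Frizzled receptors were dominated by Fzd4, which can also be bound by the non-Wnt ligand norrin. Fzd4 held 64.1% to 73.2% of the summed frizzled FPKM in WT and 66.3% to 70.9% in OGTBKO. Its level was 27.7, 45.7, 53.5 and 37.9 FPKM in WT and 41.2, 34.3, 30.1 and 36.1 FPKM in OGTBKO, and the groups overlapped (log2 change -0.18, 95% interval -0.62 to 0.26, adjusted p = 0.558). The lowest of these values was in WT 1, the WT library with the highest skeletal muscle marker sum. Of all libraries, WT 1 also had the lowest sums of endothelial markers (100 FPKM) and of pericyte and smooth muscle markers (107 FPKM). The part of these tissues in the Fzd4 value was not tested. Fzd7 ranked next, at 4.11, 8.08, 7.13 and 6.51 FPKM in WT and 6.73, 6.36, 5.36 and 7.80 FPKM in OGTBKO, with a log2 change of 0.05 (-0.39 to 0.48, adjusted p = 0.891).

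Fzd1 was the frizzled receptor that fell. The gene lies on the minus strand of chromosome 5 from 4753839 to 4758035 (mm10, ENSMUSG00000044674), and its length of 4197 bases equals that span, so the deposited annotation holds no intron. Fzd1 was 5.10, 4.63, 5.65 and 4.58 FPKM in WT and 3.69, 3.4, 3.72 and 3.83 FPKM in OGTBKO. Every OGTBKO library lay below every WT library, with means of 4.99 ± 0.50 and 3.66 ± 0.184 FPKM (log2 change -0.40 ± 0.10 SE, limma adjusted p = 0.0276). After trend removal the change was -0.51 (adjusted p = 0.0165), and with the library total as denominator it was -0.29 and no longer passed (adjusted p = 0.108, where 9.33% of all genes passed). The limma adjusted p lay between 0.0501 and 0.0736 when any of WT 2, OGTBKO 1, OGTBKO 2, OGTBKO 3 or OGTBKO 4 was left out. In these fits the log2 change was -0.43 to -0.37, and 694 to 1615 of all 13171 genes passed, against 2050 in the main fit. The other frizzled receptors with enough signal overlapped between groups: Fzd6 averaged 2.49 ± 0.352 and 2.93 ± 0.419 FPKM, Fzd8 averaged 2.19 ± 0.848 and 1.83 ± 0.134 FPKM, and Fzd5 averaged 0.683 ± 0.0981 and 0.551 ± 0.0785 FPKM in WT and OGTBKO. Their adjusted p-values were 0.315, 0.659 and 0.479. Fzd3 (0.450 ± 0.117 and 0.405 ± 0.0561 FPKM) and Fzd2 (0.385 ± 0.0802 and 0.550 ± 0.282 FPKM) were under the level for testing. Fzd10 had 0 reads in WT and 8 in OGTBKO, and Fzd9 had 25 reads in OGTBKO 1, the library with the highest muscle marker sum, against 0 to 7 elsewhere; the part of muscle tissue in the Fzd9 reads was not tested.

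The window of 250 bases before to 50 after the RefSeq start is shown for Fzd1, as a receptor that fell, with TCF/LEF core words (ACAAAG or TCAAAG) and CCAAT words in capitals on either strand (RefSeq, GRCm38.p6, chr5:4758167-4758466, minus strand, 5′ to 3′):
Fzd1: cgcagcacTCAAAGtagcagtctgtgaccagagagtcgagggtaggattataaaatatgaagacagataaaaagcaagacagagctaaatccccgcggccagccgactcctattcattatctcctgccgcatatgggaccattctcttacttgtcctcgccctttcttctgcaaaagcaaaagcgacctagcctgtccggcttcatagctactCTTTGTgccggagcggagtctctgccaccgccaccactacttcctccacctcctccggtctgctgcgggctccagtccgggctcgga
The window held TCAAAG at position -242 relative to the start and ACAAAG, read on the reverse strand, at -37. The RefSeq start lies 181 bases upstream of the start in the deposited table. At least 1 such TCF/LEF word occurred in 31.2% of all 32851 RefSeq windows of this length and in 5 of the 17 tested members with an entry. A word match is a description and not evidence of a bound site.

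The co-receptors showed a fall of Lrp6 beside overlapping values of Lrp5. Lrp6 (mm10, chromosome 6, 134446476 to 134566965, minus strand, ENSMUSG00000030201) was 10.4, 12.4, 13.5 and 10.2 FPKM in WT and 8.74, 8.53, 6.85 and 8.25 FPKM in OGTBKO. The groups did not overlap, and the means were 11.6 ± 1.59 and 8.10 ± 0.854 FPKM (log2 change -0.49 ± 0.12 SE, limma adjusted p = 0.0295). Its call did not hold after trend removal (log2 change -0.31, limma adjusted p = 0.0611). It also missed the threshold with the library total as denominator (-0.38, limma adjusted p = 0.060). The same held without any of WT 2, OGTBKO 2, OGTBKO 3 or OGTBKO 4 (limma adjusted p from 0.0562 to 0.0842). In these leave-out fits the log2 change was -0.52 to -0.42, and 694 to 1173 of all 13171 genes passed, against 2050 in the main fit. Lrp5 was 3.73, 5.07, 6.23 and 5.43 FPKM in WT and 6.74, 5.46, 4.35 and 4.95 FPKM in OGTBKO, a log2 change of 0.07 (95% interval -0.31 to 0.45, adjusted p = 0.815). Within each library the ratio of Lrp6 to Lrp5 was 1.89 to 2.78 in WT and 1.30 to 1.67 in OGTBKO. That ratio was chosen after its values were seen and is given as a description. The GC content was 46.0% for Lrp6 and 54.7% for Lrp5, a difference in the direction of the trend over all genes.

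Secreted antagonists held the member that rose, and several of them spread widely between libraries of a group. SFRP proteins carry a frizzled-like domain and bind Wnt ligands outside the cell. Sfrp1 (mm10, chromosome 8, 23411502 to 23449632, plus strand, ENSMUSG00000031548) was 0.742, 0.783, 0.821 and 0.616 FPKM in WT and 1.38, 1.41, 1.20 and 1.74 FPKM in OGTBKO. Every OGTBKO library lay above every WT library, with 38 to 49 reads per WT library and 94 to 106 per OGTBKO library. The means were 0.740 ± 0.0892 and 1.43 ± 0.227 FPKM (log2 change 0.63 ± 0.14 SE, limma adjusted p = 0.0187). Sfrp1 passed after trend removal (0.60, adjusted p = 0.0297) and without both libraries numbered 1 (0.65, adjusted p = 0.0440). Without OGTBKO 4 its log2 change was 0.56 and its limma adjusted p was 0.0551, where 957 of all 13171 genes passed.

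Sfrp5, an adipocyte-secreted antagonist, lay on the other side. It was 2.92, 0.772, 0.994 and 1.48 FPKM in WT and 0.705, 0.327, 0.908 and 0.340 FPKM in OGTBKO, and the lowest WT value lay under the highest OGTBKO value. The log2 change was -0.86 (95% interval -1.58 to -0.14, limma adjusted p = 0.0959). Sfrp5 has a GC content of 60.3%, and after trend removal the change was -1.14 and passed (limma adjusted p = 0.0418). Within each library the ratio of Sfrp1 to Sfrp5 was 0.254 to 1.01 in WT and 1.32 to 5.12 in OGTBKO, again a description chosen after its values were seen.

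For Sfrp2, Sfrp4 and Dkk3 the libraries of both groups overlapped widely. Sfrp2 was 0.938, 2.47, 1.67 and 1.48 FPKM in WT and 2.32, 7.90, 3.38 and 0.534 FPKM in OGTBKO (log2 change 0.60, 95% interval -0.62 to 1.81, adjusted p = 0.484), and was 0.12 without OGTBKO 2 and 1.13 without OGTBKO 4. Sfrp4 was 0.967, 0.485, 0.136 and 0.249 FPKM in WT and 0.117, 2.10, 0.479 and 0.0859 FPKM in OGTBKO (0.10, -0.98 to 1.19, adjusted p = 0.906), a change of -0.36 without OGTBKO 2. Dkk3 was 0.193, 0.915, 0.787 and 0.583 FPKM in WT and 0.689, 1.65, 0.977 and 0.642 FPKM in OGTBKO (0.41, -0.22 to 1.04, adjusted p = 0.340), a change of 0.20 without WT 1 and 0.22 without OGTBKO 2. OGTBKO 2 was the highest library for all 3 genes, and OGTBKO 4 the lowest for Sfrp2 and Sfrp4. The summed FPKM of 10 progenitor and fibroblast markers was also highest in OGTBKO 2 (513) and lowest in OGTBKO 4 (204). It ranged from 300 to 413 in WT. The abundant Col3a1 gave 165 FPKM of the sum in OGTBKO 2. Taken singly, Dpp4, Pi16, Cd34, Dpt, Col1a1, Col3a1 and Dcn were highest in OGTBKO 2. Pdgfra and Lum were highest in WT 1, and Ly6a in WT 2. Of these 10 markers 0 were higher and 1 was lower in OGTBKO (Ly6a), and the part of these cells in the antagonist levels was not tested. Dkk2 (0.144 ± 0.119 and 0.196 ± 0.128 FPKM) and Wif1 (0.0369 ± 0.0563 and 0.0417 ± 0.0487 FPKM) were under the level for testing.

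**Figure D3:**
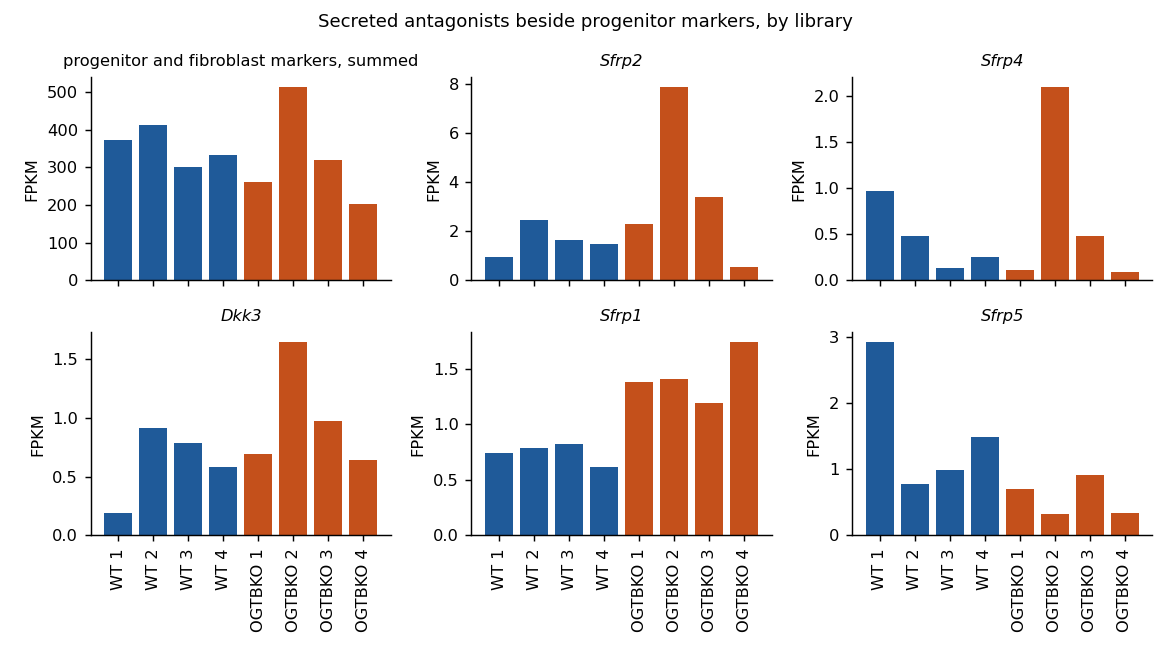
FPKM by library for the sum of 10 progenitor and fibroblast markers and for 5 secreted antagonists, WT in blue and OGTBKO in orange, each panel starting at 0. Sfrp2, Sfrp4 and Dkk3 peak in OGTBKO 2 with the marker sum (513 FPKM), while Sfrp1 is above 1.19 FPKM in all 4 OGTBKO libraries and below 0.83 FPKM in all 4 WT libraries.

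In the R-spondin axis, Lgr4 and Znrf3 fell (2 of 4 tested, where 7.46% of all genes fell). All 4 tested members had log2 changes below 0 (median -0.52), as did 6617 of all 13171 genes tested. However, that of Rspo4 was above 0 with array weights (0.11), without WT 3 (0.0888), without OGTBKO 1 (0.0855) and without both libraries numbered 1 (0.0409). LGR4 and LGR6 are R-spondin receptors and ZNRF3 is the membrane ubiquitin ligase that they counteract, so Lgr4 and Znrf3 encode proteins of opposite effect on receptor turnover. Lgr4 (mm10, chromosome 2, 109917647 to 110014257, plus strand, ENSMUSG00000050199) was 4.32, 5.96, 6.47 and 6.02 FPKM in WT and 4.24, 3.75, 2.87 and 3.35 FPKM in OGTBKO. The groups did not overlap, although WT 1 was close to OGTBKO 1, and the means were 5.69 ± 0.945 and 3.55 ± 0.583 FPKM (log2 change -0.61 ± 0.15 SE, limma adjusted p = 0.0278). Without both libraries numbered 1, those with the highest muscle marker sums, the change was -0.80 (limma adjusted p = 0.0135). After trend removal it was -0.50 (limma adjusted p = 0.0494), and with the library total as denominator it was -0.51 and did not pass (limma adjusted p = 0.0608). Leaving out WT 2, WT 3, WT 4, OGTBKO 2, OGTBKO 3 or OGTBKO 4 gave limma adjusted p-values from 0.0503 to 0.0811. In these fits the log2 change was -0.64 to -0.52, and 694 to 2115 of all 13171 genes passed, against 2050 in the main fit.

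The Lgr4 window is shown as that of the receptor with the largest fall among the members that passed (RefSeq, GRCm38.p6, chr2:109917397-109917696, plus strand, capitals as for Fzd1):
Lgr4: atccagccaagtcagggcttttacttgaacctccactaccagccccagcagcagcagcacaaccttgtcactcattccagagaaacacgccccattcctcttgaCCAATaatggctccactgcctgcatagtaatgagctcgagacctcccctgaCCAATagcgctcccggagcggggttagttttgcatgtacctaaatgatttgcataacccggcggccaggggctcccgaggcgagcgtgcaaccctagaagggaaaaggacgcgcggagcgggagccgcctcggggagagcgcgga
It held CCAAT at positions -146 and -95 relative to the start, a word found on either strand in 37.4% of all windows and in 7 of the 17 tested members with an entry.

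Znrf3 (mm10, chromosome 11, 5276324 to 5444847, minus strand, ENSMUSG00000041961) was 1.35, 1.53, 2.29 and 1.49 FPKM in WT and 1.03, 0.865, 0.803 and 1.03 FPKM in OGTBKO. All OGTBKO libraries lay below all WT libraries, with means of 1.66 ± 0.421 and 0.931 ± 0.114 FPKM (log2 change -0.58 ± 0.15 SE, limma adjusted p = 0.0359). Its limma adjusted p lay between 0.0530 and 0.0997 without any of WT 2, WT 4 or the 4 OGTBKO libraries in turn. In these fits the log2 change was -0.62 to -0.54, and 694 to 1615 of all 13171 genes passed, against 2050 in the main fit. Lgr6, the most abundant transcript of this axis, was 6.4, 15.2, 16.0 and 19.2 FPKM in WT and 8.59, 9.55, 8.67 and 11.4 FPKM in OGTBKO. WT 1 was below every OGTBKO library while the other WT libraries were above them all (log2 change -0.46, 95% interval -1.11 to 0.20, limma adjusted p = 0.309). Without WT 1 the change was -0.79 (limma adjusted p = 0.0118), and without both libraries numbered 1 it was -0.74 (limma adjusted p = 0.0223). Of all libraries, WT 1 also had the lowest sums of endothelial markers (100 FPKM) and of pericyte and smooth muscle markers (107 FPKM). The part of skeletal muscle or of these tissues in the low Lgr6 value of WT 1 was not tested.

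R-spondins themselves were scarce. Rspo4 was 0.487, 0.471, 1.12 and 0.387 FPKM in WT and 0.180, 0.367, 1.52 and 0.364 FPKM in OGTBKO, with the highest value in library 3 of each group (log2 change -0.10, 95% interval -0.90 to 0.69, adjusted p = 0.869). Rspo1 (0.260 ± 0.163 and 0.160 ± 0.122 FPKM) and Rspo3 (0.135 ± 0.131 and 0.0824 ± 0.0256 FPKM) were under the level for testing, and Rnf43, the partner ligase of Znrf3, averaged 0.0134 ± 0.0201 and 0.0159 ± 0.0120 FPKM.

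**Figure D4:**
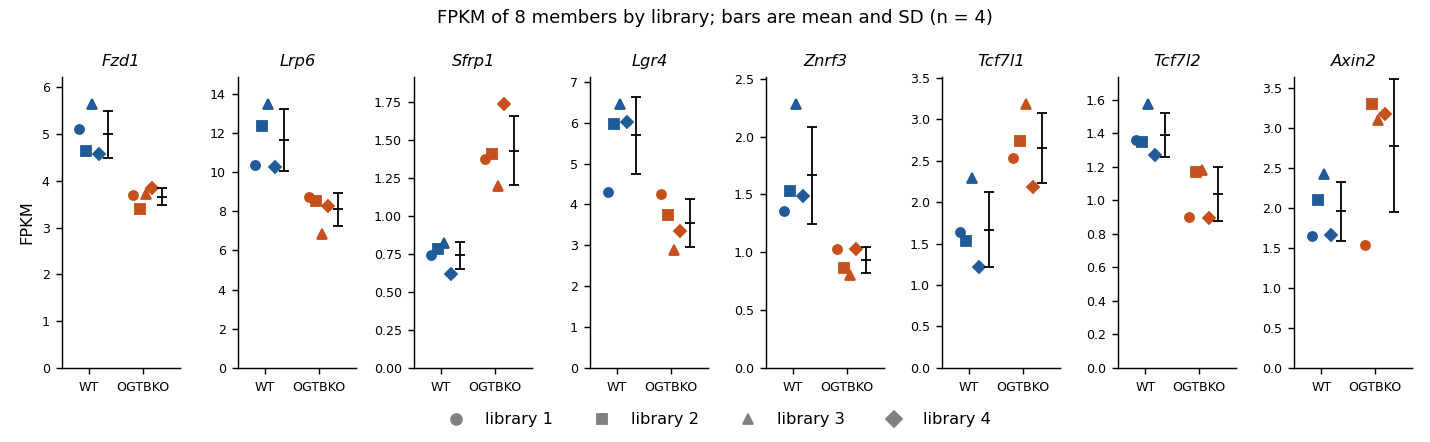
FPKM by library (marker shape) for the 5 members that passed and for Tcf7l1, Tcf7l2 and Axin2, which did not, with the mean and SD of 4 libraries per group and axes starting at 0. For Fzd1, Lrp6, Sfrp1, Lgr4, Znrf3 and Tcf7l2 the groups do not overlap, whereas library 3 of WT reaches into the OGTBKO range for Tcf7l1 and OGTBKO 1 lies below all WT libraries for Axin2.

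None of the 7 cytoplasmic members passed the test in limma (2 of 7 had an unadjusted p under 0.05, Dvl3 and Apc), where 15.6% of all genes passed and 32.8% had an unadjusted p under 0.05. Ctnnb1, which encodes β-catenin, was 42.3, 45.9, 46.6 and 50.6 FPKM in WT and 46.6, 46.9, 44.7 and 46.4 FPKM in OGTBKO. The OGTBKO range lay inside the WT range (log2 change -0.004, 95% interval -0.21 to 0.20, adjusted p = 0.982), and transcript levels say nothing of the stability of the protein. Dvl1, a dishevelled scaffold that relays the receptor signal, was 7.49, 6.80, 6.22 and 7.5 FPKM in WT and 9.31, 7.40, 8.81 and 6.64 FPKM in OGTBKO (0.18, -0.10 to 0.46, adjusted p = 0.352). Its relative Dvl3 averaged 6.08 ± 0.492 FPKM in WT and 4.99 ± 0.376 FPKM in OGTBKO with no overlap, but did not pass (log2 change -0.26, limma adjusted p = 0.0955). Dvl2 averaged 0.978 ± 0.198 and 0.796 ± 0.130 FPKM (adjusted p = 0.440), and its span overlaps the opposite-strand gene Acadvl, which was far more abundant at 251 and 189 FPKM.

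Apc and Axin1 are scaffolds of the β-catenin destruction complex. Apc was 4.84, 5.15, 7.13 and 5.19 FPKM in WT and 4.53, 4.55, 4.07 and 4.46 FPKM in OGTBKO. The groups did not overlap, yet the log2 change of -0.30 did not pass (95% interval -0.57 to -0.02, limma adjusted p = 0.131), and it was -0.07 after trend removal, Apc having a GC content of 44.3%. Axin1 averaged 4.35 ± 0.637 and 4.94 ± 0.987 FPKM (adjusted p = 0.508).

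Axin2, a scaffold and at the same time a widely used transcriptional readout of β-catenin signalling, split the OGTBKO libraries. It was 1.65, 2.09, 2.42 and 1.67 FPKM in WT and 1.54, 3.30, 3.10 and 3.17 FPKM in OGTBKO. OGTBKO 1 lay below all WT libraries and the other 3 above them (log2 change 0.38, 95% interval -0.09 to 0.86, limma adjusted p = 0.239). Without OGTBKO 1 the change was 0.60 and passed (limma adjusted p = 0.0312), and without both libraries numbered 1 it was 0.54 (limma adjusted p = 0.0441). OGTBKO 1 had the highest muscle marker sum of the 8 libraries, and its part in its Axin2 value was not tested.

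The Axin2 window is shown because of that use as a readout (RefSeq, GRCm38.p6, chr11:108920099-108920398, plus strand, capitals as for Fzd1):
Axin2: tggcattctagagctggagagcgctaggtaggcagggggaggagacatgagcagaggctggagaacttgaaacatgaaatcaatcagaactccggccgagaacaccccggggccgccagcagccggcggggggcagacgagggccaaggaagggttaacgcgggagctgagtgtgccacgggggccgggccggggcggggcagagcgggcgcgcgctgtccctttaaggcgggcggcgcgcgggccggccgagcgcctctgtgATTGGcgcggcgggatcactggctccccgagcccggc
It had a GC content of 70%, against a median of 52.7% over all windows, and held CCAAT on the reverse strand 14 bases after the start. Neither ACAAAG nor TCAAAG occurs in these letters. The GC box word GGGCGG occurred at positions -58 and -20, as it did somewhere in 35.7% of all windows and in 14 of the 17 tested members with an entry.

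Neither of the 2 nuclear factors tested, Tcf7l1 and Tcf7l2, passed (limma adjusted p = 0.050 and 0.135, both with an unadjusted p under 0.05), and they lay on opposite sides of 0. TCF7L1 acts mostly as a repressor of Wnt targets and TCF7L2 can act as either repressor or activator. Tcf7l1 was 1.64, 1.53, 2.29 and 1.22 FPKM in WT and 2.53, 2.74, 3.19 and 2.18 FPKM in OGTBKO, and WT 3 lay above OGTBKO 4. The log2 change was 0.56 ± 0.16 SE, and its adjusted p of 0.050 lay just above the threshold. It passed without WT 3 (0.68, limma adjusted p = 0.0195), and after trend removal it was 0.39 (limma adjusted p = 0.148) at a GC content of 59.3%. Tcf7l2 was 1.36, 1.35, 1.58 and 1.27 FPKM in WT and 0.899, 1.17, 1.18 and 0.896 FPKM in OGTBKO, with every OGTBKO library below every WT library. Its log2 change was -0.30 (95% interval -0.59 to -0.01), and -0.19 after trend removal, at a GC content of 47.3%.

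Within each library, Tcf7l1 made up 46.2% to 56.9% of the summed TCF/LEF FPKM in WT and 61.5% to 69.4% in OGTBKO. Tcf7l2 made up 39.3% to 48.4% in WT and 23.4% to 26.8% in OGTBKO. The ratio of Tcf7l1 to Tcf7l2 was 1.20, 1.13, 1.45 and 0.954 in WT and 2.81, 2.34, 2.69 and 2.43 in OGTBKO (means 1.18 ± 0.205 and 2.57 ± 0.223, SD, n = 4). The ratios did not overlap between groups. The pair was chosen after its values were seen, so no test is given, and the 2 genes differ in GC content in the direction of the trend over all genes. Tcf7 was under the level for testing at 0.145 ± 0.0100 and 0.349 ± 0.152 FPKM, with 4 to 6 reads per WT library and 9 to 23 per OGTBKO library. Lef1 averaged 0.0148 ± 0.0117 and 0.0107 ± 0.00731 FPKM.

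**Figure D5:**
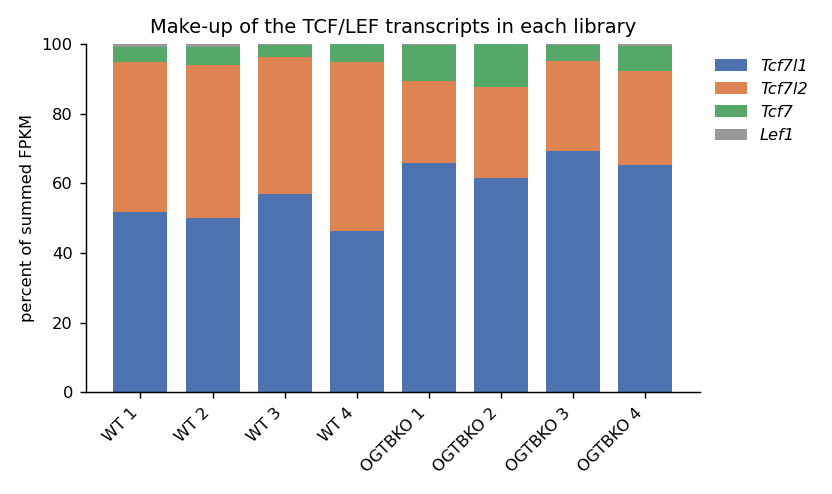
Share of the summed TCF/LEF FPKM (percent) taken by Tcf7l1, Tcf7l2, Tcf7 and Lef1 in each library. The Tcf7l2 band is 39.3% to 48.4% of the sum in WT and 23.4% to 26.8% in OGTBKO.

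Other genes of the pathway were read from a list of 92 symbols, of which 88 were in the table, 85 were above 0 and 60 were tested. Of the 60, 7 were higher and 3 lower (16.7%, against 15.6% of all genes), with a median log2 change of -0.03. By role, the counts of higher and lower were 0 and 0 of 2 for secretion and maturation, 0 and 0 of 5 for other co-receptors and non-canonical receptors, and 0 and 0 of 6 for other extracellular modulators. They were 1 and 1 of 16 for the destruction complex and its kinases, 2 and 1 of 14 for nuclear partners, 2 and 0 of 5 for adhesion partners of β-catenin, 1 and 0 of 4 for commonly used targets, and 1 and 1 of 8 for the calcium branch. The count for targets leaves out targets already counted as members or under another role. Among these were Znrf3, which fell (log2 change -0.58, limma adjusted p = 0.0359), and Axin2, which did not pass (0.38, limma adjusted p = 0.239).

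The 3 largest changes were those of Aes, Id2 and Cby1. Aes, a short corepressor related to Groucho, was 36.3, 31.3, 43.9 and 32.5 FPKM in WT and 107, 80.8, 94.8 and 79.5 FPKM in OGTBKO, with no overlap (log2 change 1.32 ± 0.14 SE, limma adjusted p = 0.00236). Cby1, a β-catenin antagonist, was 3.58, 2.45, 2.31 and 2.74 FPKM in WT and 6.94, 5.51, 6.34 and 6.08 FPKM in OGTBKO (1.05 ± 0.13 SE, limma adjusted p = 0.00383). Id2, a helix-loop-helix inhibitor counted among commonly used targets, was 11.1, 9.48, 12.6 and 6.27 FPKM in WT and 17.7, 19.8, 21.9 and 24.4 FPKM in OGTBKO (1.08 ± 0.20 SE, limma adjusted p = 0.0111). Each of Aes, Cby1 and Id2 had all 4 OGTBKO libraries above all WT libraries, and each passed under all 20 alternatives tried.

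The smaller changes among these genes included kinases and adhesion partners. Csnk1e, casein kinase 1 epsilon, averaged 2.73 ± 0.0653 FPKM in WT and 3.99 ± 0.237 FPKM in OGTBKO (log2 change 0.48, limma adjusted p = 0.0104). Prkca, protein kinase C alpha, averaged 1.19 ± 0.231 and 1.93 ± 0.177 FPKM (0.53, limma adjusted p = 0.0289), and Jup, plakoglobin, averaged 8.01 ± 1.39 and 11.4 ± 0.744 FPKM (0.49, limma adjusted p = 0.0315). The corepressor Tle4 fell from 3.39 ± 0.365 to 2.31 ± 0.246 FPKM (-0.47, limma adjusted p = 0.0262), and the calcium-dependent kinase Camk2d fell from 3.38 ± 0.201 to 2.56 ± 0.183 FPKM (-0.34, limma adjusted p = 0.0383). Camk2d has a GC content of 43.9%, and its change was -0.09 after trend removal (limma adjusted p = 0.547). When WT 2, WT 4 or any OGTBKO library was left out in turn, or both libraries numbered 1 together, 4 of the 60 passed (Aes, Cby1, Id2 and Csnk1e), and Tle4, Prkca, Jup and Camk2d did not. Of all 13171 genes, 694 to 1615 passed in the fits that left out 1 of these libraries, against 2050 in the main fit. In the fit without both libraries numbered 1, 1920 of all genes passed (14.6%). The 2 remaining genes, named after their values were seen, were Cdh5, the endothelial cadherin (log2 change 0.35, limma adjusted p = 0.0413), and the tankyrase Tnks2 (-0.39, limma adjusted p = 0.0496). Summed endothelial markers, Cdh5 among them, were 100 to 132 FPKM in WT and 126 to 134 FPKM in OGTBKO. The 1 of 6 that was higher was Cdh5 itself, while Pecam1, Kdr, Tek, Emcn and Cldn5 did not pass.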

How the data were processed

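The data were RNA-seq libraries of 8 brown adipose tissue samples, WT 1 to 4 and OGTBKO 1 to 4, grouped by the genotype label. Libraries were made with the NEBNext Ultra RNA kit, per the labels' protocols. HISAT2 2.0.5, Subread with featureCounts 1.5.0-p3 and the build mm10 are listed, without roles, per the submitters' processing notes; strand use is not given in the sources used here. The authors deposited 1 table of FPKM per gene, which was used as given.

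FPKM multiplied by gene length gave whole multiples (within 0.001 of a read) for at least 99.951% of values in each library. These multiples gave the reads per library and showed denominators of 0.790 to 1.13 times the library total. In every library the denominator equalled a size factor times the geometric mean of the library totals. That factor is the median, over genes with reads in all libraries, of the ratio of reads to their geometric mean. Replicates of a group differed beyond sampling noise (chi-square per degree of freedom 16.0 to 99.6), so none was merged.

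Tests were made with limma 3.58.1 in R 4.3.3 on log2(FPKM + 0.5), with eBayes and a trend, over 13171 genes with a mean of at least 0.5 FPKM, two-sided. P-values were adjusted by Benjamini-Hochberg over all of these genes, and an adjusted p under 0.05 was called passed. Fold changes on this scale understate those of low genes. The script was tested on simulated data. Counts, shares and motif matches were made in Python 3.11.15 with pandas 2.3.3.

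The members and lists were chosen with earlier results of these data known. Named were Ogt, every member that passed, every tested member, the 2 highest untested members of each role, and the 8 other pathway genes with the smallest adjusted p. Wnt10b, Fzd9, Fzd10 and Rnf43 were named after their values were seen. Alternatives were other pseudocounts and filters, the library total as denominator, array weights, a replicate block, removal of a GC and length trend by splines, and leaving out each library; leaving out both libraries numbered 1 was added after the muscle markers had been seen. Promoter windows came from RefSeq (GRCm38.p6), which held 36 of the 54 members and 17 of the 28 tested.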

Additional observations from a re-analysis of the deposited data

Results flagged for a closer look

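In 5 of 56 groups of 4 libraries (28 tested members in each of 2 genotypes) the extreme library stood apart from the other 3, with a gap larger, as a share of the group's range, than Dixon's 95% limit for 4 values; chance gives about 1 in 20 groups. Wnt5a was highest in OGTBKO 4 at 4.09 FPKM, against 3.06 to 3.17 FPKM in the other OGTBKO libraries. Rspo4 was highest in WT 3 at 1.12 FPKM, against 0.387 to 0.487 FPKM, and in OGTBKO 3 at 1.52 FPKM, against 0.180 to 0.367 FPKM. Apc was highest in WT 3 at 7.13 FPKM, against 4.84 to 5.19 FPKM. Axin2 was lowest in OGTBKO 1 at 1.54 FPKM, against 3.10 to 3.30 FPKM. WT 3 was the highest of the 8 libraries for 8 of the 28 tested members, and WT 1 the lowest for 7.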

How the results depend on the processing

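Of all genes tested, 2050 passed (1068 higher, 982 lower). The count was 1229 with no filter, 1229 with the library total as denominator (980 higher, 249 lower, with the median of all genes at 0.09), 3516 with array weights, and 694 to 2115 with each library left out. Of the members 5 passed, against 2 with no filter (Wnt2b and Sfrp1), 3 with the library total (Sfrp1, Znrf3 and Tcf7l1), and 0 to 6 with each library left out (0 without OGTBKO 4). Of the other pathway genes 10 passed, against 4 with no filter, 4 without both libraries numbered 1, and 4 to 9 with each library left out. The fit with the replicate number as a block called 888 genes (6.74%), 1 member (Tcf7l1) and 3 other pathway genes. The block together with the GC and length trend removed called 518 genes, 0 members and 4 other pathway genes. Correlations between WT and OGTBKO libraries were taken on the deviations of each gene from its group mean, not on the levels themselves. On these deviations, same-numbered libraries correlated at 0.220, 0.169, 0.0143 and -0.00696, and differently numbered ones at -0.167 to 0.125. The values for numbers 1 and 2 thus lay above those of all differently numbered pairs. The labels do not state that the numbers pair samples, so the main fit used no pairing. These correlations do not show that pairing was absent. The cause of these moves was not tested.

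No member that passed changed direction under any of the 20 alternatives. Direction turned for members that had not passed: Wnt11 (-0.0271 with the trend removed, with or without the replicate block), Fzd7 (-0.0310 in the same fits, -0.0752 with array weights, -0.15 without both libraries numbered 1), Lrp5 (-0.17) and Axin1 (-0.0499) without both libraries numbered 1, Rspo4 (0.11 with array weights, 0.0409 without both libraries numbered 1), Ctnnb1 (0.11 with the library total) and Sfrp4 (-0.000407 with a pseudocount of 0.1). With each library left out the log2 change ranged from -0.0519 to 0.11 for Wnt5a, -0.0121 to 0.18 for Wnt11, -0.14 to 0.16 for Fzd7, -0.35 to 0.0284 for Fzd8, -0.0595 to 0.16 for Lrp5, -0.36 to 0.35 for Sfrp4, -0.44 to 0.0888 for Rspo4, and -0.0464 to 0.0384 for Ctnnb1. Of the 26 members under 0.5 FPKM, 11 had fewer than 20 reads over all libraries, which limits what can be read from them; Fzd3, a long gene, had 46 to 110 reads per library.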
